A study of Mus musculus with 6 samples.

Results

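Oligodendrocytes, their precursors and the myelin they make were followed here through 33 genes in the hippocampus of wild-type (WT) and Phf8 knockout (KO) mice. The genes were listed by name, from lineage factors to myelin proteins, at a time when earlier results of these data were known. They were read by 74 of the 45037 probe sets and are 33 of the 18193 genes that have a probe set of their own. Each of the 33 had at least 1 probe set above the filter on low signals, and 65 of the 74 probe sets passed it. The probe sets that stand for 31 of the genes were above the filter level on every array, Cspg4 was below it on WT replicate 2 and Nkx6-2 on KO replicate 1.

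The study asked which genes differ in the hippocampus when Phf8, an X-linked histone demethylase gene, is missing. It compared 3 WT with 3 KO samples from C57BL/6 mice 10 weeks old, with 1 Affymetrix array for each. In the KO allele 2 exons that encode the core of the JmjC catalytic domain were removed with loxP sites and EIIa-Cre, which acts in the early embryo, so the deletion is not limited to any cell type. The allele was made in 129/S6/SvEv cells and backcrossed to C57BL/6 J. The labels name no agent for either group. The mice were male, the KO hemizygous (Phf8-/Y) and the WT their littermates. The sources do not settle whether the RNA on an array came from 1 animal or from a pool, and the p-values below measure the spread between arrays only.

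Oligodendrocytes wrap axons of the central nervous system in myelin, a stack of lipid-rich membrane that speeds conduction. They arise from dividing precursors that carry the PDGF receptor and NG2, pass through a short differentiating stage, and then switch on myelin proteins and the enzymes of myelin lipids under the control of Olig2, Sox10 and Myrf. The hippocampus holds grey matter and myelinated tracts such as the alveus and fimbria, and its bulk RNA contains all these stages at once. In such samples fewer oligodendrocytes and less RNA for each oligodendrocyte cannot be told apart.

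The targeted gene was low on every KO array. The bright Phf8 probe set had log2 signals of 9.66 to 9.90 in WT and 7.99 to 8.55 in KO hippocampus, and the difference was -1.51 (standard error 0.17, adjusted p = 0.0527 from limma, and 0.00378 without KO replicate 3). Its other 2 probe sets were below the filter, and the position of the 3 probe sets along the transcript was not analysed here. KO replicate 3 stood apart, with correlations of 0.925 to 0.940 with the other arrays across genes, which are not independent replicates, against 0.976 to 0.987 among the others. The results are therefore given with and without it. The median log2 signal of an array ran from 6.55 to 6.90.

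The oligodendrocyte genes were more often higher than lower in KO hippocampus, by amounts that did not pass the test. Of the 33 genes, 23 were higher in KO on average (69.7%, against 51.9% of all genes) and 10 lower, and the median difference between KO and WT was 0.13 on the log2 scale, against 0.01 over all 12903 genes tested. With KO replicate 3 left out, 24 genes lay above and 9 below WT (72.7% above, against 55.7% of all genes), at a median difference of 0.10 against 0.03. None of the 33 passed an adjusted p of 0.05 in limma (lowest adjusted p = 0.323), where 8 of all genes passed (0.062%). Without KO replicate 3 again none did (lowest adjusted p = 0.0636), against 0.411% of all genes. When limma weighted the arrays by their agreement, Mog (adjusted p = 0.0180) and Aspa (adjusted p = 0.0354) passed. With these weights 129 of all 12903 genes passed, against 8 without them.

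At an unadjusted p under 0.05 there were 8 genes, 7 of them higher and 1 lower in KO, which is 24.2% of the list against 7.48% of all genes (4.69% higher and 2.79% lower). Leaving out KO replicate 3 gave 11, or 33.3% against 13.9%, of which 9 were higher (8.27% of all genes) and 2 lower (5.67% of all genes). For 10 genes no WT array overlapped a KO array. Nkx2-2, Enpp6, Gpr37, Mog, Cldn11, Opalin, Ugt8a and Aspa were higher on every KO array (8 genes, against 9.56% of all genes), and Nkx6-2 and Mbp were lower on every KO array (2 genes, against 7.13%). Together they make 30.3% of the list, against 16.7% of all genes. After the arrays were centred on their medians, 6 genes did not overlap (10.6% of all genes), as Nkx2-2, Opalin, Ugt8a and Mbp then did, and after quantile normalization Nkx2-2 and Mbp did. Leaving out KO replicate 3 gave 15 such genes, against 31.6% of all genes, 10 of them higher (18.8%) and 5 lower (12.8%). A difference of at least 1.5-fold was reached by 3 genes, all higher in KO (Mog, Enpp6 and Cspg4), against 4.15% of all genes higher and 2.03% lower by that much. On the arrays other than KO replicate 3 these were Mog, Enpp6 and Aspa, against 3.27% of all genes higher and 1.77% lower.

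Single arrays took an uneven part in this. KO replicate 3 gave the highest of the 6 values for 17 of the 33 genes (51.5%), against 32.8% of all genes, and the lowest for 6 (18.2%), against 36.4% of all genes. WT replicate 3 gave the lowest of the 6 values for 13 of the 33 genes (39.4%), against 12.6% of all genes, and the highest for 0. The median deviation of the 33 genes from their own WT mean was 0.06, 0.06 and -0.06 on the WT arrays of replicates 1 to 3, and 0.11, 0.08 and 0.29 on the KO arrays. Over all genes tested the same medians were near 0 on the WT arrays and 0.03, 0.04 and -0.01 on the KO arrays. KO replicate 3 thus had the highest median of the 33 genes and one just below 0 over all genes.

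**Figure D1:**
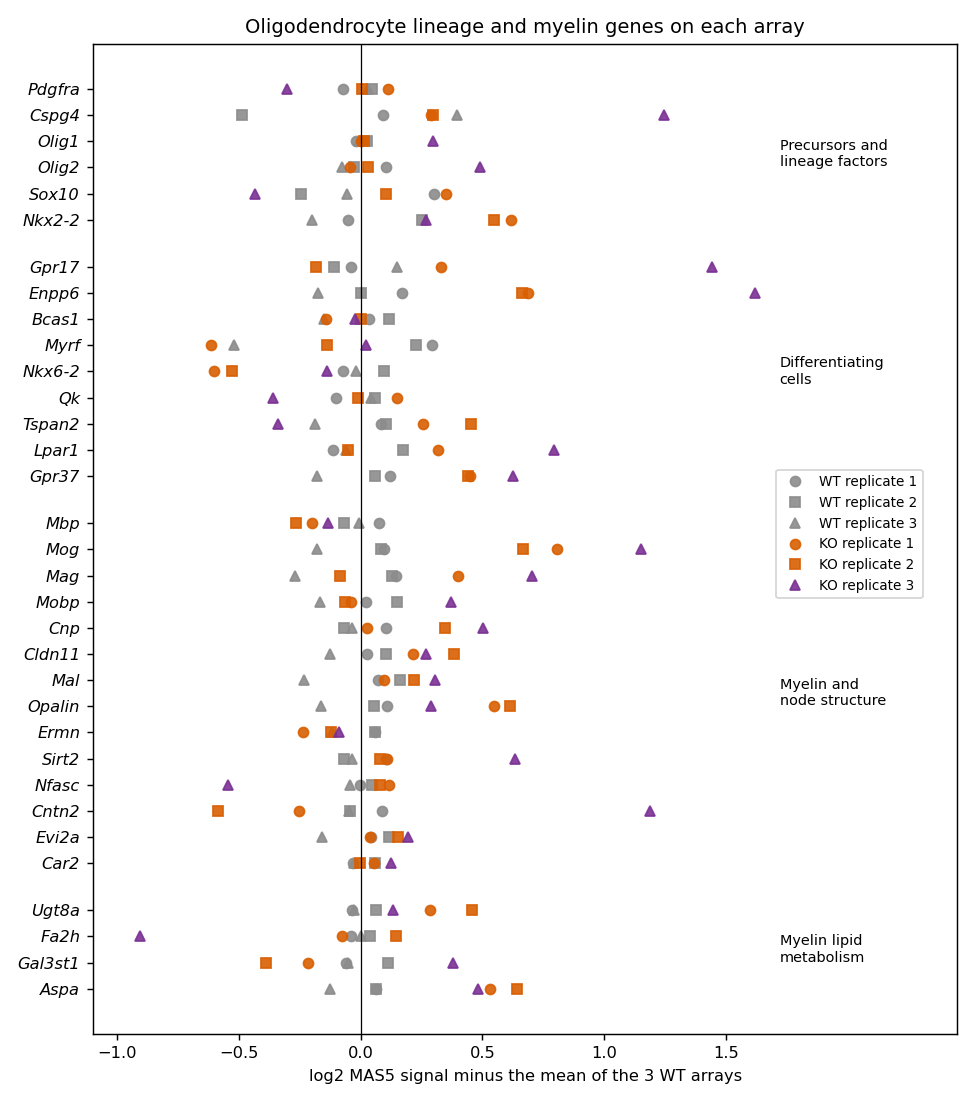
Difference in log2 MAS5 signal from the WT mean (x axis) for each of the 33 genes, with 1 point for each array and the genes set out by stage. Mog, Enpp6, Gpr37 and Aspa have all KO points to the right of all WT points, while Cntn2, Gpr17 and Fa2h have a point for KO replicate 3 (purple triangle) far from the other 2 KO points.

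The 4 genes with the smallest p were Mog, Aspa, Gpr37 and Opalin, all higher in KO. Their promoters are shown because they stand for the genes that separated the groups best, and because PHF8 is a histone demethylase known to sit at promoters. Each line holds the 250 bases before the start of transcription, 5′ to 3′ on the gene's strand, from RefSeq on GRCm38.p6. Capitals mark a match on either strand to a Sox core (ACAAAG), a Myrf motif (CTGGCAC) or an Olig E-box (CAGCTG). Factors of this lineage are known to read such letters, and other forms of the motifs were not searched. The windows are chr17:37023399-37023648 for Mog, chr11:73324638-73324887 for Aspa, chr6:25689981-25690230 for Gpr37 and chr19:41077114-41077363 for Opalin, all on the minus strand.
Mog: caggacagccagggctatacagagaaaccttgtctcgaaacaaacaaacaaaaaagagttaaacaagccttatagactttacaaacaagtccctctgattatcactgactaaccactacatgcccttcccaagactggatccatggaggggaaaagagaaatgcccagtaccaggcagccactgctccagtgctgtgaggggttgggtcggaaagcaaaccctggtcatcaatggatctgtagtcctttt
Aspa: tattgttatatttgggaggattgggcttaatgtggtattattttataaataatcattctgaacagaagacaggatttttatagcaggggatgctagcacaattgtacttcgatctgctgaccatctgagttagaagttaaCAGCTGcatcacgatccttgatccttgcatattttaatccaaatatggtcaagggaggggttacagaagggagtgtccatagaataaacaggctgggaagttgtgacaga
Gpr37: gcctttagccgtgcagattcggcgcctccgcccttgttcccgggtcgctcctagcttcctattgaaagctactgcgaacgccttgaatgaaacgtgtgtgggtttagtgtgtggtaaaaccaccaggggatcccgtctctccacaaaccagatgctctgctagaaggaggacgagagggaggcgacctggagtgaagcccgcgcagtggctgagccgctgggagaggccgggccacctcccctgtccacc
Opalin: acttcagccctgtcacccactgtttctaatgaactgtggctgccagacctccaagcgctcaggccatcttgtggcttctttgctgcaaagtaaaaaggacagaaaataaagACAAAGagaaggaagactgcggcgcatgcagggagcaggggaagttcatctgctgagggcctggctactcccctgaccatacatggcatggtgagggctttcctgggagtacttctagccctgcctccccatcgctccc

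In the exact letters searched, Aspa held 1 Olig E-box, Opalin held 1 Sox core, and neither Mog nor Gpr37 held any of the 3 motifs in this window. The Gpr37 window had 16 CpG dinucleotides and 60.8% G and C. Those of Mog, Aspa and Opalin had 2, 2 and 4 CpG dinucleotides, with 46.8%, 38.8% and 54.4% G and C. RefSeq promoters were at hand for 24 of the 33 genes. Over 250 bases their median was 10.5 CpG dinucleotides, against 6 over 27025 genes. A Sox core stood in 16.7% of the 24 and 16.5% of all genes, a Myrf motif in 12.5% and 4.14%, and an Olig E-box in 4.17% and 12.8%. These are matches of letters, and no matches of different motifs shared bases in the 24 windows. The 50 bases after the start, not shown, were also searched. Over all 300 bases Opalin held 2 Sox cores, 1 Myrf motif and 1 Olig E-box, while Mog, Aspa and Gpr37 gained none. In 300 bases a Sox core stood in 18.7% of all genes, a Myrf motif in 5% and an Olig E-box in 16.1%.

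Mog, the myelin oligodendrocyte glycoprotein on the outermost face of the sheath, had the smallest p of the 33 genes. Its log2 signals in replicates 1 to 3, the order used for every gene here, were 8.93, 8.92 and 8.66 in WT and 9.64, 9.50 and 9.99 in KO hippocampus. All 3 KO arrays lay above all WT arrays, with a gap wider than the spread of either group. The difference was 0.87 (standard error 0.17, 95% interval 0.49 to 1.26, adjusted p = 0.323), a 1.83-fold higher signal, and 0.74 without KO replicate 3.

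Aspa encodes aspartoacylase, which splits N-acetylaspartate in oligodendrocytes and yields acetate for lipid synthesis. It read 9.46, 9.46 and 9.27 in WT and 9.93, 10.04 and 9.88 in KO. The KO arrays were close to each other and all above WT. The mean was 0.55 higher (standard error 0.12, 95% interval 0.27 to 0.84, adjusted p = 0.430), and 0.59 without KO replicate 3.

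Gpr37, an orphan receptor that oligodendrocytes carry as they mature, read 10.45, 10.39 and 10.15 in WT and 10.78, 10.77 and 10.96 in KO. Again the groups did not overlap, and KO replicates 1 and 2 were nearly equal. Its difference was 0.51 (standard error 0.12, 95% interval 0.21 to 0.80, adjusted p = 0.531).

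Opalin, a glycoprotein particular to myelin of the central nervous system, read 9.48, 9.42 and 9.21 in WT and 9.92, 9.98 and 9.66 in KO. Here KO replicate 3 was the lowest KO array and still above WT. The difference was 0.48 (standard error 0.14, 95% interval 0.15 to 0.82, adjusted p = 0.585), and 0.58 without that array. A second, dim probe set of Opalin was below the filter, at log2 signals of 1.67 to 4.44 in WT and 5.24 to 6.02 in KO.

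**Figure D2:**
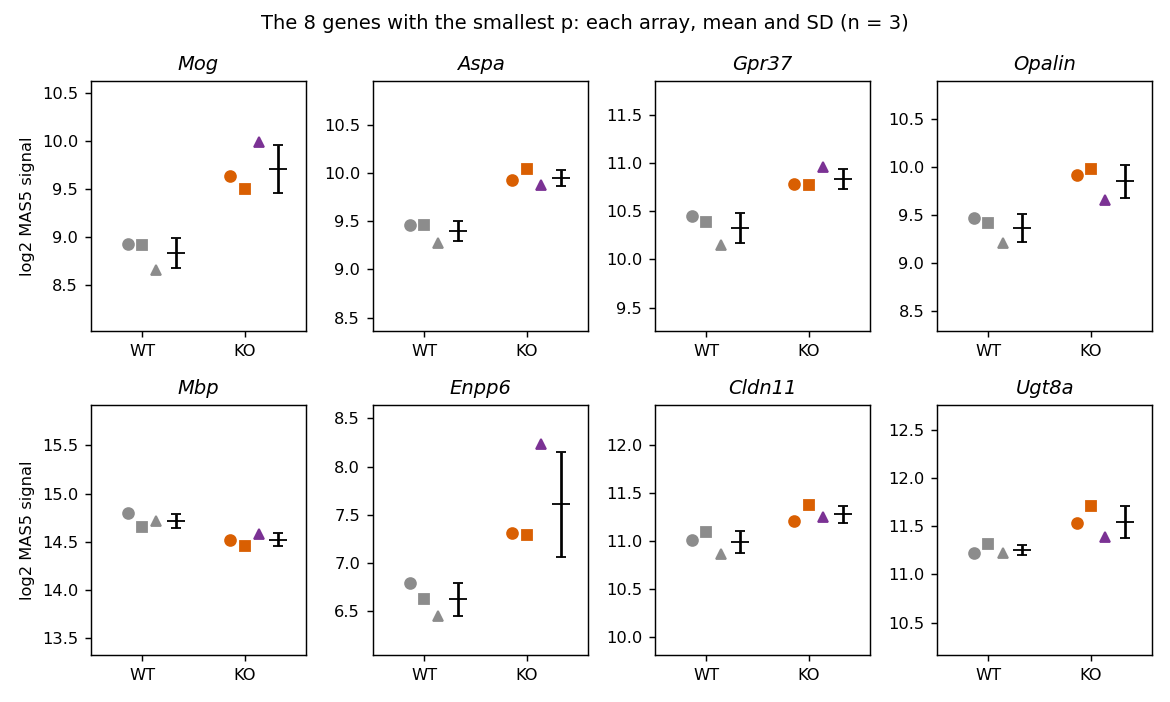
Log2 MAS5 signal on each array (y axis, 1 panel for each gene with its own range) for the 8 genes with the smallest p, with the mean and SD of 3 arrays as bars and KO replicate 3 as a purple triangle. The KO points lie above the WT points in every panel but that of Mbp, where they lie below. With the arrays centred on their medians the groups of Opalin, Ugt8a and Mbp overlap, and with quantile normalization those of Mbp do.

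Among the 14 genes of myelin and node structure, 11 were higher and 3 lower in KO, with a median difference of 0.17, and of 0.10 without KO replicate 3. Their median deviation from the WT mean was 0.072, 0.060 and -0.12 on the WT arrays. On the KO arrays it was 0.075, 0.079 and 0.30. The log2 of their summed signal was 16.21, 16.18 and 16.08 in WT and 16.12, 16.13 and 16.33 in KO. Mbp, the basic protein that holds the inner faces of the myelin membrane together, went the other way from Mog. Its brightest probe set read 14.79, 14.65 and 14.71 in WT and 14.52, 14.45 and 14.58 in KO. Every KO array was below every WT array, by a small step. The difference was -0.20 (standard error 0.06, 95% interval -0.34 to -0.06, adjusted p = 0.586). With quantile normalization it was -0.072, with the groups overlapping, and with the mean of all 8 kept probe sets it was -0.0032. This probe set lies near the top of the scale, as the brightest probe set of each array had a log2 signal of 14.82 to 14.91, and whether that narrows its difference was not tested.

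Cldn11, the claudin of the tight junctions between myelin wraps, read 11.01, 11.09 and 10.86 in WT and 11.20, 11.37 and 11.25 in KO. The groups were close and did not overlap. It was 0.29 higher (95% interval 0.04 to 0.54, adjusted p = 0.638), and 0.30 higher without KO replicate 3.

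Cnp, the cyclic nucleotide phosphodiesterase of non-compact myelin, read 12.89, 12.71 and 12.75 in WT and 12.81, 13.13 and 13.28 in KO. KO replicate 1 fell among the WT arrays and the other KO arrays above them. The difference was 0.29 (95% interval -0.0032 to 0.59, adjusted p = 0.659), and 0.19 without KO replicate 3.

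Mag, the adhesion glycoprotein on the face of myelin next to the axon, read 10.27, 10.25 and 9.85 in WT and 10.52, 10.03 and 10.82 in KO. KO replicate 2 lay inside the WT range and the other KO arrays above it. The difference of 0.34 (95% interval -0.17 to 0.85, adjusted p = 0.709) became 0.16 without KO replicate 3.

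The remaining 8 genes of this group differed by -0.15 to 0.27, with adjusted p of 0.684 to 0.950. Higher on average were Sirt2, a tubulin deacetylase of myelin (0.27), Mal, a proteolipid of myelin membrane traffic (0.21), Evi2a (0.13), Cntn2, an adhesion molecule of the juxtaparanode (0.12), Mobp, a basic protein of compact myelin (0.09), and Car2, a cytosolic carbonic anhydrase (0.06). Ermn, which encodes the cytoskeletal protein ermin (-0.15), and Nfasc, which encodes the neurofascins of node and paranode (-0.12), were lower. Car2 bounds a difference most tightly, with a 95% interval of -0.11 to 0.23. Without KO replicate 3 the differences were 0.09 for Sirt2, 0.16 for Mal, 0.10 for Evi2a, 0.03 for Car2 and -0.18 for Ermn.

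The direction of Cntn2, Nfasc and Mobp turned when KO replicate 3 was left out. Cntn2 deviated from its WT mean by -0.25 and -0.59 in KO replicates 1 and 2 and by 1.19 in KO replicate 3, and its difference without that array was -0.42 (adjusted p = 0.241). Nfasc deviated by 0.12 and 0.08 in KO replicates 1 and 2 and by -0.55 in KO replicate 3. Mobp turned to -0.05 without that array. In all, KO replicate 3 lay on the other side of the WT mean from both other KO arrays for 8 of the 33 genes. The same share over all genes was not counted, so this is not shown to be particular to these genes.

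The 4 genes of myelin lipid metabolism divided, 2 higher and 2 lower. Both genes with a difference at an unadjusted p under 0.05 were higher, Aspa, given above, and Ugt8a. The enzyme that Ugt8a encodes makes galactosylceramide, the main glycolipid of myelin. Its log2 signals were 11.22, 11.32 and 11.23 in WT and 11.54, 11.71 and 11.39 in KO, with no overlap. The difference was 0.29 (95% interval 0.03 to 0.55, adjusted p = 0.643), and 0.37 without KO replicate 3.

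Fa2h, whose enzyme hydroxylates the fatty acids of these lipids, differed by -0.28 (95% interval -0.88 to 0.32), a value set by KO replicate 3, with a deviation of -0.90 from the WT mean. Without it the difference was 0.03. Gal3st1 encodes the sulfotransferase that turns galactosylceramide into sulfatide. It differed by -0.07 with that array and by -0.30 without it (adjusted p = 0.438).

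In the differentiating stage, 5 of 9 genes were higher in KO and 4 lower, at a median difference of 0.12, or 0.07 without KO replicate 3. Enpp6, a choline phosphodiesterase known as a mark of newly formed oligodendrocytes, had the largest difference of the 33 genes over all 6 arrays. Without KO replicate 3, and with array weights, that of Mog was larger. It read 6.79, 6.62 and 6.45 in WT and 7.31, 7.28 and 8.24 in KO. All KO arrays were above WT and KO replicate 3 was well above the other KO arrays. The difference was 0.99 (standard error 0.30, 95% interval 0.30 to 1.68, adjusted p = 0.586), a 1.99-fold higher signal, and 0.68 without KO replicate 3. With an offset of 16 signal units added before log2 it was 0.89.

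Gpr17, a receptor of committed precursors about to differentiate, read 8.67, 8.60 and 8.86 in WT and 9.04, 8.53 and 10.16 in KO. One KO array was below all WT arrays and the other 2 above them. The difference of 0.53 (95% interval -0.35 to 1.41, adjusted p = 0.727) became 0.07 without KO replicate 3. On KO replicates 1 and 2 the deviations from the WT mean were 0.33 and -0.18 for Gpr17 and 0.69 and 0.66 for Enpp6.

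Myrf, the membrane-bound transcription factor that switches on myelin genes, read 10.68, 10.61 and 9.87 in WT and 9.77, 10.25 and 10.41 in KO. WT replicate 3 lay far below the other WT arrays and the groups overlapped. The difference was -0.24 (95% interval -0.85 to 0.36, adjusted p = 0.804), and -0.06 to -0.50 when each array was left out in turn.

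Gpr37, already described, was the other gene of this stage at an unadjusted p under 0.05. The remaining 5 differed by -0.42 to 0.35 with adjusted p of 0.697 to 0.883. Nkx6-2, a homeodomain factor of maturing oligodendrocytes, was lower on every KO array (difference -0.42, 95% interval -1.03 to 0.18). Lpar1, a receptor for lysophosphatidic acid (0.35), and Tspan2, a tetraspanin of oligodendrocytes (0.12), were higher on average. Differences of Bcas1, a mark of early myelinating cells (-0.06), and of Qk, the RNA-binding protein quaking that shapes myelin transcripts (-0.07), were near 0. The value of Qk is from its brightest probe set. Its 7 probe sets above the filter differed by -0.07 to 0.54, 5 of them higher and 2 lower. Without KO replicate 3, Tspan2 was 0.35 higher and did not overlap. Lpar1 was then 0.13 higher, with the groups overlapping.

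Of the 6 genes of precursors and lineage factors, 5 were higher in KO and 1 lower, at a median difference of 0.13, or 0.14 without KO replicate 3, and 0 had an unadjusted p under 0.05. Nkx2-2, a homeodomain factor active as precursors begin to differentiate, read 6.51, 6.81 and 6.36 in WT and 7.18, 7.11 and 6.83 in KO. It did not overlap, although the lowest KO array was just above the highest WT array. The difference was 0.48 (95% interval -0.05 to 1.004, adjusted p = 0.670).

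Pdgfra, the PDGF receptor that defines precursors and is also a mark of fibroblasts, read 10.34, 10.46 and 10.44 in WT and 10.52, 10.42 and 10.11 in KO. The groups overlapped and KO replicate 3 was the lowest array. The difference was -0.06 (95% interval -0.38 to 0.26, adjusted p = 0.912), and 0.06 without that array.

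Olig2, a basic helix-loop-helix factor of the whole lineage, read 8.83, 8.70 and 8.66 in WT and 8.69, 8.76 and 9.22 in KO. KO replicate 3 was the highest array and the other KO arrays fell inside the WT range. The difference was 0.16 (95% interval -0.25 to 0.56, adjusted p = 0.810), and -0.01 without that array. Olig1, its neighbour and relative, behaved alike on these arrays, at 0.10 (95% interval -0.14 to 0.35) with KO replicate 3 and 0.01 without it.

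Sox10, a factor that oligodendrocytes keep at every stage, read 9.40, 8.86 and 9.05 in WT and 9.45, 9.21 and 8.67 in KO. The arrays of both groups were mixed. The difference was 0.01 (95% interval -0.54 to 0.56, adjusted p = 0.995), an interval that includes differences as large as those of Opalin. Cspg4, which encodes the NG2 proteoglycan of precursors and also of pericytes, was 1.25 above its WT mean on KO replicate 3 and 0.29 and 0.30 above it on the other KO arrays. Its difference was 0.61 (95% interval -0.22 to 1.44, adjusted p = 0.690).

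Several genes were read by more than 1 probe set, and these did not always give the same answer. Of the 33 genes, 13 had several probe sets above the filter and 20 had 1. In limma over the 27408 probe sets above the filter, 0 of the 65 probe sets of these genes passed (lowest adjusted p = 0.576), where 0.0219% of all did, and 11 had an unadjusted p under 0.05 (10 higher, 1 lower), against 6.18% of all. The groups did not overlap for 11 probe sets higher in KO (7.37% of all) and 2 lower (7.83% of all). Without KO replicate 3, 0 passed (lowest adjusted p = 0.103, against 0.234% of all), 18 had an unadjusted p under 0.05 (12.6% of all), and 17 higher (15% of all) and 9 lower (15.1% of all) did not overlap. Further probe sets of Lpar1 (0.56), Tspan2 (0.33) and Nfasc (0.41) were higher on every KO array. The brightest probe sets of these genes, used above, had their groups overlap.

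Mbp had 8 probe sets above the filter, 2 of them higher and 6 lower in KO. Their differences ran from -0.30 to 0.41. On KO replicate 3 their deviations from their own WT means ran from -0.60 to 3.003. The probe set with the value of 3.003 read 10.45, 10.25 and 10.24 in WT and 10.69, 8.16 and 13.32 in KO, so that 2 KO arrays went opposite ways. The 5 probe sets with WT means above 14 differed by only -0.20 to -0.01.

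The probe sets of Cnp differed in size and those of Ugt8a in direction. All 3 of Cnp were higher in KO, by 0.29 to 0.87, and they were 0.50 to 2.20 above their WT means on KO replicate 3. For Ugt8a the brightest probe set deviated by 0.13 there and the second by -1.84, the latter at 8.80, 8.78 and 8.87 in WT and 9.28, 8.94 and 6.98 in KO. The 7 probe sets of Qk ran from -0.36 to 1.40 on that array.

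Over the 13 genes, the range of the deviations among probe sets of 1 gene had a median of 0.18 to 0.24 on the WT arrays, 0.26 and 0.38 on KO replicates 1 and 2, and 0.83 on KO replicate 3. It was largest on KO replicate 3 for 9 of the 13. The same measure over all 6015 genes with several probe sets was 0.15 to 0.16 in WT, 0.25 and 0.41 in KO replicates 1 and 2, and 0.60 in KO replicate 3. The probe sets of a gene read different parts or forms of its transcripts, and RNA quality was not measured here.

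**Figure D3:**
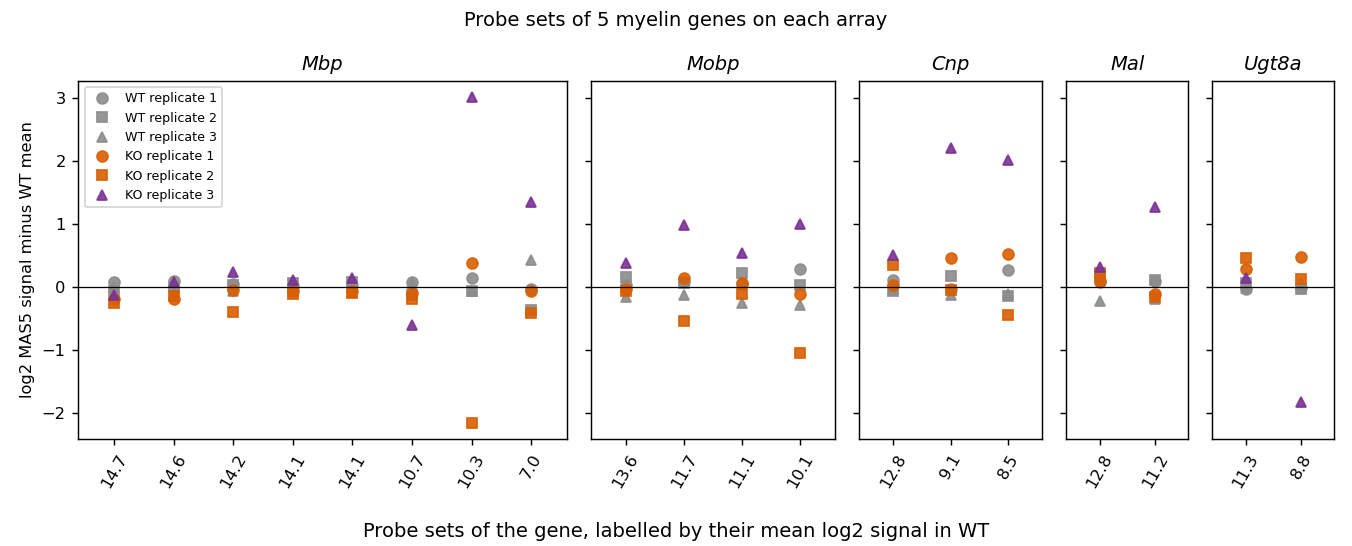
Difference in log2 MAS5 signal from the WT mean (y axis) for each probe set above the filter of 5 myelin genes, set out by mean WT signal (x axis), with 1 point for each array. The probe sets of Mbp, Cnp, Mal and Ugt8a spread most on KO replicate 3, where those of Mbp lie between -0.60 and 3.003. Those of Mobp spread most on KO replicate 2.

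Other genes of the lineage were counted from lists chosen by function, with earlier results of these data known. Of 34 further myelin and oligodendrocyte genes, 29 were measured, 17 of them higher and 12 lower in KO, with a median difference of 0.12, and of 0.040 without KO replicate 3. None passed in limma, and 6 had an unadjusted p under 0.05 (5 higher, 1 lower), which is 20.7% against 7.48% of all genes. With that array left out there were 8 (5 higher, 3 lower), or 27.6% against 13.9%. Smallest in p were Pllp, the proteolipid plasmolipin of myelin (0.52, adjusted p = 0.563), Anln, an actin-binding protein that scaffolds septins in myelin (-0.51, adjusted p = 0.563), and Tmem125, an oligodendrocyte membrane protein (1.07, adjusted p = 0.578). Tmem125 was below the filter level on WT replicates 2 and 3, at 5.84 and 5.77. Without KO replicate 3, Anln was the only gene of the list to pass (difference -0.64, adjusted p = 0.0436), where 0.411% of all genes passed.

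Of 10 further precursor genes, 9 were measured, 8 higher and 1 lower, with a median of 0.24, and none passed. Ptprz1, a receptor phosphatase of precursors and astrocytes, was 0.31 higher, Pcdh15, a protocadherin, 0.55, and Lhfpl3, a membrane protein gene of precursors, 0.61 (adjusted p = 0.638 to 0.670). The value of Lhfpl3 was 0.27 without KO replicate 3. At an unadjusted p under 0.05 there were 2 of the 9 (22.2%), against 7.48% of all genes. Cholesterol synthesis, on which myelin growth draws, had 10 of 12 genes measured, 6 higher and 4 lower, with a median of 0.05. None passed, and 0 of the 10 were under an unadjusted p of 0.05, against 7.48% of all genes. Named by smallest p are the isomerase gene Idi1 (-0.29, or -0.19 without KO replicate 3, adjusted p = 0.659), the decarboxylase gene Mvd (0.49, or 0.27 without KO replicate 3, adjusted p = 0.669) and the squalene epoxidase gene Sqle (0.15, adjusted p = 0.733).

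Markers of other cells and of neighbouring tissue also varied between the arrays. Of 13 thalamus markers 11 were measured, all higher in KO on average. Their median was 0.19 and 0.24 above the WT mean on KO replicates 1 and 2 and 2.52 above it on KO replicate 3. The log2 of their summed signal was 12.46 to 12.63 in WT and 12.87 to 15.26 in KO. Among them Tcf7l2 is also a factor of differentiating oligodendrocytes. It read 7.99, 8.13 and 8.28 in WT and 8.64, 8.44 and 11.50 in KO. The part of neighbouring tissue in the high oligodendrocyte values of KO replicate 3 was not tested. For Mog, Aspa, Gpr37 and Opalin the difference without that array was 0.74, 0.59, 0.45 and 0.58. Without it 9 of the 11 thalamus markers were still higher and 2 lower, at a median difference of 0.15. The part of neighbouring tissue in these 4 differences was not tested either.

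On KO replicate 3 the 7 measured markers of CA1 pyramidal cells, of 9 listed, had a median of -1.55. Their summed log2 signal was 13.46 to 13.51 in WT and 12.54 to 13.45 in KO. All 11 dentate granule cell markers were measured, and 10 of them were lower in KO, with a median difference of -0.35. Without KO replicate 3 all 11 were lower, with a median difference of -0.26. The 10 astrocyte markers, 5 higher and 5 lower, had a median of 0.02, and 9 of 10 microglia markers had one of -0.01. Endothelial markers (7 of 8 measured) had a median difference of 0.05 and pericyte markers (7 of 8) one of 0.07.

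Fibroblast markers, with which Pdgfra is shared, had a higher median on every KO array than on any WT array. Of 7 listed, 6 were measured, with a median of 0.92, 0.50 and 0.58 above the WT mean on KO replicates 1 to 3, while Pdgfra differed by -0.06. Their summed log2 signal was 10.44 to 11.24 in WT and 10.83 to 12.06 in KO. Ependyma markers (8 of 8 measured, all higher in KO) had medians of 0.73, 0.28 and 1.08 on those arrays, against -0.06, 0.40 and -0.27 on the WT arrays. Choroid plexus markers (8 of 8) had 1.32, 0.28 and -2.03 on the KO arrays and 0.05, 0.96 and -0.995 on the WT arrays, so that the groups overlapped for both lists. The myelinating cells of peripheral nerve were read by 3 of 6 Schwann cell markers, at a median difference of -0.26. What part these cells had in the oligodendrocyte values was not tested.

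**Figure D4:**
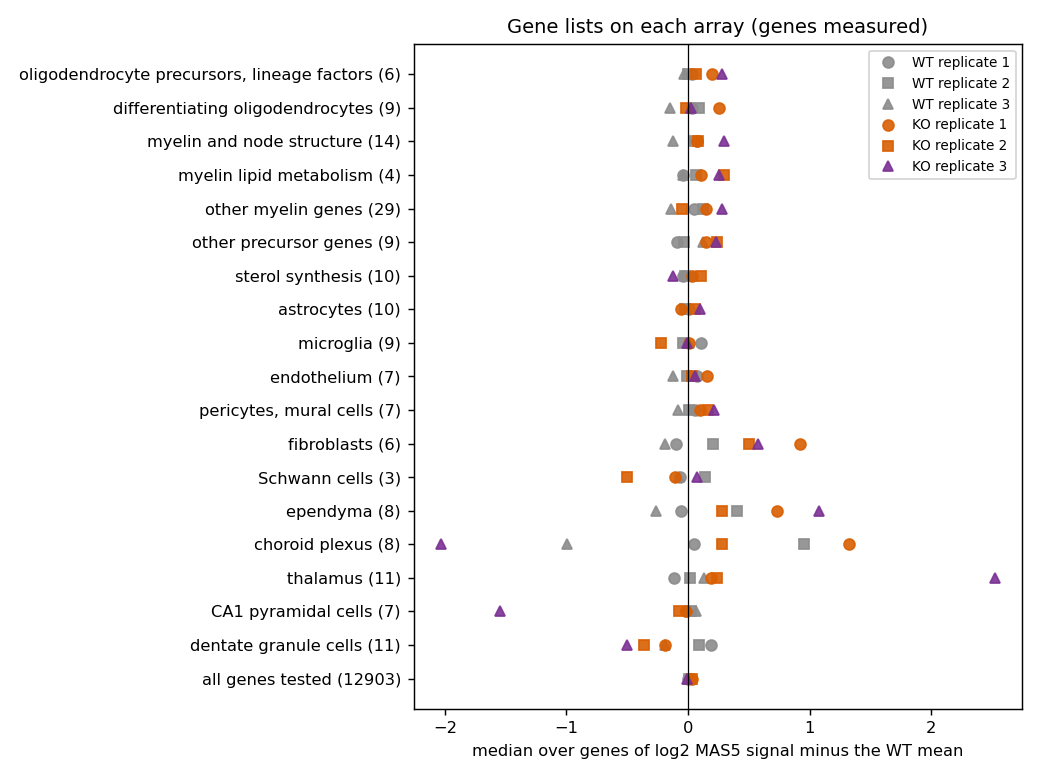
Median deviation from the WT mean (log2, x axis) of each group of oligodendrocyte genes and of each other list on every array, with the number of genes measured in brackets. The oligodendrocyte groups stay between -0.15 and 0.30 on all 6 arrays, while thalamus markers reach 2.52 and CA1 markers -1.55 on KO replicate 3.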

How the data were processed

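Gene expression was measured on 6 Affymetrix arrays of hippocampal RNA labelled as biotinylated cRNA, 3 WT and 3 KO, grouped by the sample labels. The deposited values are log2 MAS5 signals for each probe set, scaled by the authors to a like mean on each array (497.5 to 498.2 on the linear scale, leaving out the top and bottom 2%). MAS5 and affy stand in the submitters' processing notes, with no version given. The study's methods add GeneSpring, the removal of Absent calls and a fold of 1.5. Detection calls were not used here. Every column of array values was used (0 left out). No depth applies to arrays, and their number limits the precision.

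Probe sets above the 40th percentile of their array (log2 signals of 5.73 to 6.05) on at least 3 of 6 arrays were kept, which left 27408. Gene names came from the platform's annotation, which pairs 34945 of 45037 probe sets with 1 gene, gives several for 932 and does not name 9160. For each of 12903 genes the kept probe set with 1 symbol and the highest mean signal was used. KO minus WT was fitted over all genes, and separately over all kept probe sets, using lmFit and a trended eBayes of limma 3.58.1 (R 4.3.3), with Benjamini-Hochberg adjustment over all of them. Intervals are 95% intervals of the same fit. The fit was tested on simulated data. The 33 genes, the other lists, the tests and the rule for named genes were chosen with earlier results of these data known. Values on every array are given for the 10 genes with the smallest p and for 9 defining genes of the lineage, and up to 3 genes of the other lineage and sterol lists are named. Tcf7l2 and the genes whose other probe sets are given were named after their values were seen. The lists are described by counts and medians without a test. Alternatives were quantile normalization, median centring, other filters, an offset of 16 before log2, eBayes without trend, array weights (gene by gene), the replicate block, the mean of all kept probe sets and leaving out each array with the probe sets of the full fit. The count of genes without overlap and the alternatives on the other lists were added after seeing the data. Promoters and their coordinates came from a RefSeq table of GRCm38.p6, which held 24 of the 33 genes. For genes with several starts the first listed was counted.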

Additional observations from a re-analysis of the deposited data

How the results depend on the processing

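In limma 0 of the 33 genes reached an adjusted p of 0.05 under any alternative but array weights, where 2 did (Mog at 0.77 with adjusted p = 0.0180 and Aspa at 0.53 with adjusted p = 0.0354). Of the 65 probe sets of these genes, 3 passed with array weights (lowest adjusted p = 0.0159), and the share of all probe sets that did is not given here. These weights also raised the number of all genes that passed from 8 to 129, while eBayes without trend gave 0 and leaving out KO replicate 3 gave 53. The median difference of the genes ran from 0.092 to 0.26 when each array was left out, with the highest value without KO replicate 1. The count at 1.5-fold was 1 with the filter at the 60th percentile, which measured 29 of the 33 genes. The groups of 6 genes did not overlap with median centring (background 10.6%), and those of 12 to 15 did not when an array was left out (background 21.4% to 35.0%). Of the other lineage and sterol genes 1 passed with array weights, and 0 to 1 when an array was left out.

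Of the 33 genes, 21 kept 1 direction under every alternative and 12 changed sign under at least 1. With array weights the direction turned for Cntn2 (-0.27), Mobp (-0.041), Nfasc (0.079), Olig2 (-0.032), Pdgfra (0.092) and Qk (0.12). With the mean of all kept probe sets it turned for Nfasc (0.17), Qk (0.14), Sox10 (-0.043) and Ugt8a (-0.062). With that mean 9 of the 33 genes did not overlap, Qk among the higher ones, against 16.4% of all genes. Sox10 was also -0.0058 with quantile normalization and -0.025 with median centring. Leaving out each array gave differences of -0.13 to 0.0035 for Bcas1, -0.42 to 0.47 for Cntn2, -0.49 to 0.033 for Fa2h, -0.30 to 0.082 for Gal3st1, -0.053 to 0.17 for Mobp, -0.23 to 0.098 for Nfasc, -0.0076 to 0.26 for Olig2, -0.15 to 0.060 for Pdgfra, -0.19 to 0.068 for Qk, -0.16 to 0.23 for Sox10 and -0.043 to 0.35 for Tspan2. The causes were not tested.

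The labels do not say whether the replicate numbers pair the samples. Deviations of same-numbered arrays correlated at -0.04, 0.07 and 0.13 across genes, and those of other WT and KO arrays at -0.16 to 0.20. No pairing was seen, but so few arrays cannot exclude it. With the replicate block 0 of the 33 genes passed (lowest adjusted p = 0.551), and 4 of all genes did.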
